A study of Caenorhabditis elegans with 16 samples.

Results

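SKN-1t[DNDD] is a truncated form of the transcription factor SKN-1 of *Caenorhabditis elegans* in which 3 asparagines are replaced by aspartates. Whole L4 animals that express it were compared with the wild type by RNA sequencing, 4 samples against 4 of the 16 samples of the series. All genes with enough reads were examined, which left 14400 of 19122. The SKN-1t[DNDD] strain carries the single-copy insertion mgTi41 in an unc-119(ed3) background. It expresses the protein under the ubiquitous *rpl-28* promoter, with an HA tag at the N-terminus and GFP at the C-terminus, and without the stretch that anchors SKN-1A in the membrane of the endoplasmic reticulum (ER). The wild type is the N2 strain, with no transgene and no unc-119 allele, so the transgene, its tags, its insertion site and the unc-119(ed3) background cannot be told apart in this comparison. The genotype and title in the labels name this transgene, while the strain number beside them is the one that the study's strain list gives to SKN-1t[NDNN], and the group is used here as its genotype and title say. One insertion stood for the edited form. The other 2 strains of the series, SKN-1t[NNNN] with no asparagine replaced and SKN-1t[NDNN] with a single one replaced, share the unc-119(ed3) background and the promoter. They are used here only where a difference between SKN-1t[DNDD] and them was tested. All animals were grown at 20 °C from about 2000 synchronized larvae per 9 cm plate.

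SKN-1 is related to the mammalian Nrf factors. Its SKN-1A isoform is made as a glycoprotein of the ER, is exported to the cytosol by the ER-associated degradation machinery (ERAD), loses its sugars to the peptide:N-glycanase PNG-1 and is cut by the protease DDI-1. Removal of a sugar by PNG-1 turns the asparagine that carried it into an aspartate, a change called sequence editing, which the DNDD substitutions mimic. Edited SKN-1A is known for driving proteasome subunit genes when proteasome function is impaired, whereas the isoform SKN-1C, which does not enter the ER, is known for driving detoxification genes under oxidative stress.

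Between 24941670 and 28106736 reads per library were counted on genes in SKN-1t[DNDD] animals and between 25968963 and 28694871 in the wild type. Replicates differed by more than counting alone allows (chi-square per degree of freedom 25.9 to 162.5 over 12 pairs), so the spread between samples and not the depth set the precision. The labels do not say whether samples of a group came from separate cultures, and the study's methods state in general that its biological replicates were separate populations of worms. The p-values measure the spread left between these samples once differences shared by same-numbered replicates are removed. Where they are given without the replicate block, they measure the whole spread within groups. In a principal component analysis the 2 groups were apart on the first component (50.2% of the variance), where SKN-1t[DNDD] libraries lay between -69.0 and -24.04 and wild type libraries between 32.6 and 74.4. The second component (32.3%) placed replicates 1 and 2 of both groups at 10.7 to 61.8 and replicates 3 and 4 at -50.2 to -32.5. The labels give no reason for this split of the replicate numbers. It moves with several of the gene groups below, and its part in them was not tested other than by the values given there.

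Reads of *skn-1* (WBGene00004804, WBcel235, chromosome IV, 5651039 to 5660384, minus strand) come from the endogenous gene and the transgene together. They amounted to 251, 242, 201 and 238 CPM (reads per gene scaled to a fixed library size, with TMM factors) in replicates 1 to 4 of SKN-1t[DNDD], against 129, 123, 109 and 115 CPM in the wild type. The groups did not overlap (log2 fold change 0.96, standard error 0.112, edgeR adjusted p = 0.00102). In the fit of all 16 samples the *skn-1* level was below that of SKN-1t[NNNN], with a log2 difference of -0.34 (edgeR adjusted p = 0.00611). *unc-119* itself was at 14.3, 14.3, 12.1 and 11.7 CPM in SKN-1t[DNDD] and 9.63, 9.40, 8.82 and 9.37 CPM in the wild type (log2 fold change 0.49, edgeR adjusted p = 0.0267). For *rpl-28*, whose promoter drives the transgene, the log2 fold change was -0.17 (edgeR adjusted p = 0.299).

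In the fit with the replicate number as a block, 1692 of 14400 genes (11.8%) were more than 2-fold higher in SKN-1t[DNDD] and 630 (4.38%) more than 2-fold lower, at an adjusted p below 0.01 in edgeR's quasi-likelihood test. At 1.5-fold and an adjusted p below 0.05 the numbers were 3183 (22.1%) and 1816 (12.6%). All 1692 genes that rose, and 627 of the 630 that fell, had the same direction in all 4 same-numbered pairs. A call in this fit favours such genes, so this is not a separate test. The excess of rising genes depended on the block. Without it 495 genes (3.44%) rose and 483 (3.35%) fell, so that risen genes made up 72.9% of the calls with the block and 50.6% without it. Of the genes called with the block, 479 of those that rose and 480 of those that fell were also called without it. Single replicates weighed on the count as well: 759 genes rose without replicate 1, 928 without replicate 3 and 555 without replicate 4, and 391 fell without replicate 4. A gene symbol was lacking for 990 of the genes that rose and 302 of those that fell, which the annotation lists by sequence name. Gene groups are described in the following by the number of members that passed the 2-fold threshold and by their median log2 fold change, beside 0.0316 for all genes tested. Some lists had a smaller share called higher than the 11.8% of all genes. Among these were cytochrome P450, ABC transporters, nuclear hormone receptors, lysozymes and antimicrobial peptides, and glutathione, thioredoxin and antioxidant enzymes. All of those named but the last had a share called lower above 4.38%.

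**Figure D1:**
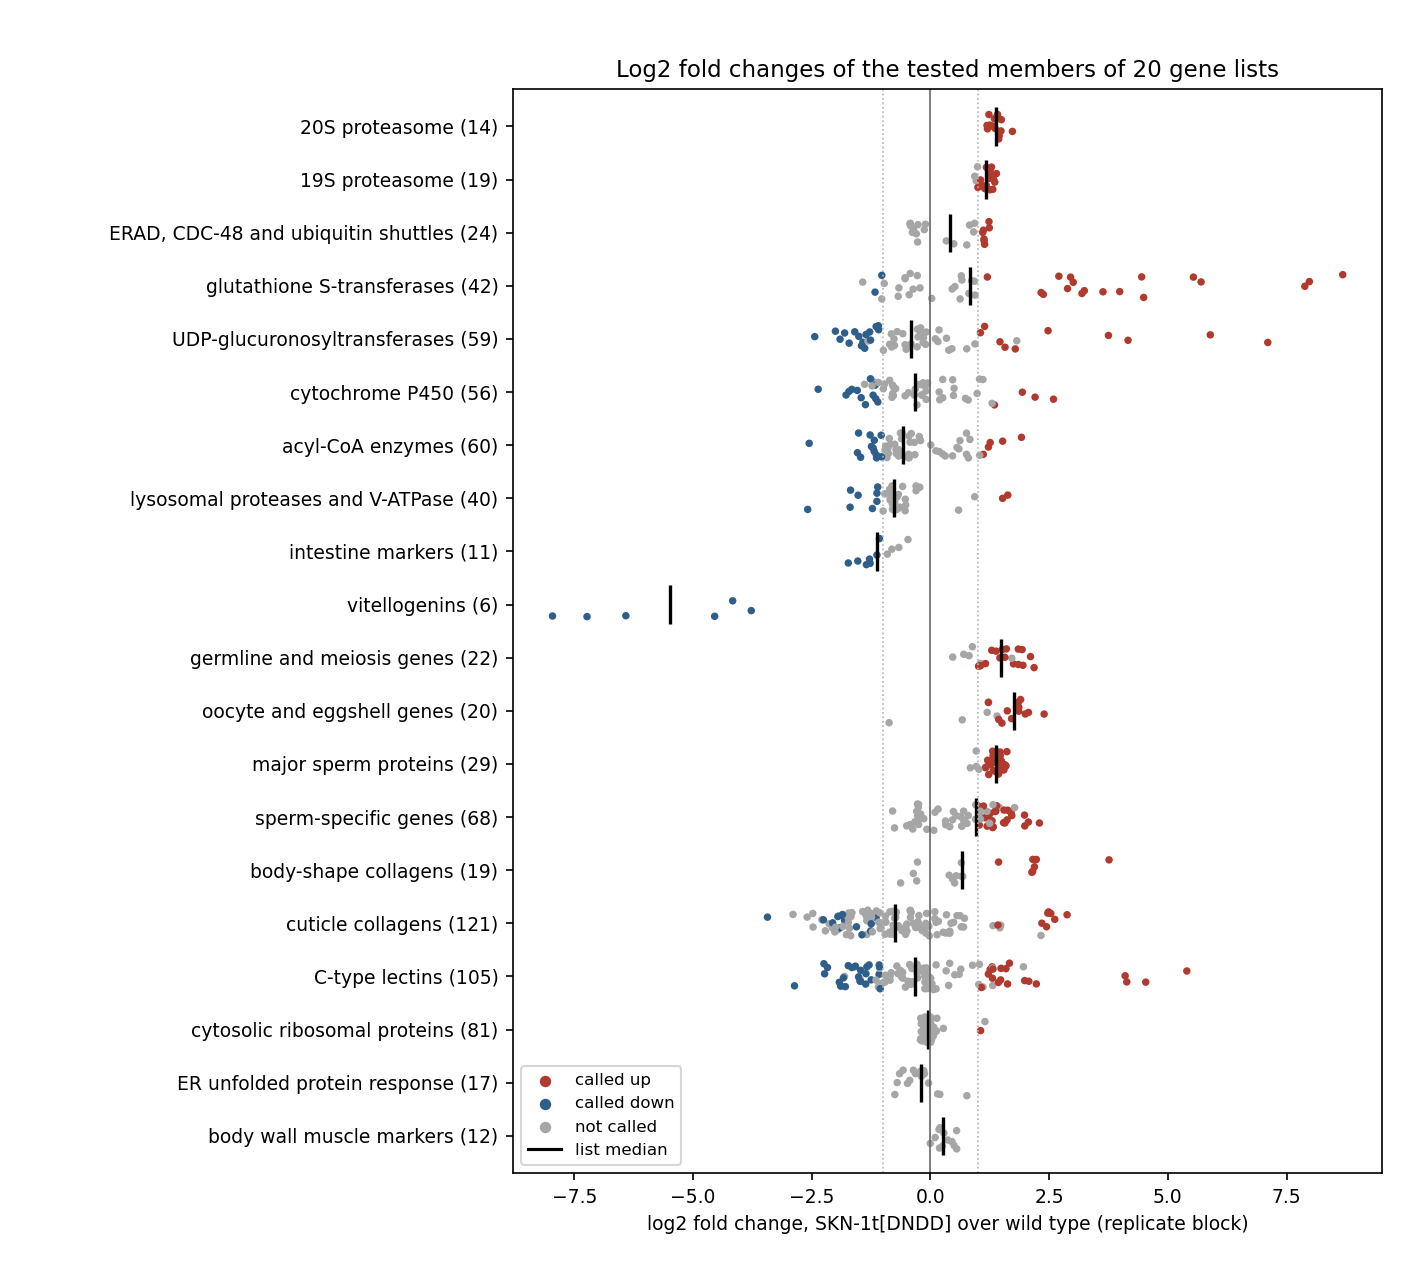
Log2 fold change of SKN-1t[DNDD] over the wild type (x axis) for each tested member of 20 gene lists (rows), with called higher members in red, called lower members in blue, the others in grey and the median of the list as a black bar. All 14 members of the 20S proteasome lie between 1.19 and 1.73, while the UDP-glucuronosyltransferases spread to both sides of 0, with 10 members called higher and 16 called lower.

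Proteasome subunit genes rose together and by similar amounts. All 14 genes of the 20S core, the barrel that holds the proteolytic sites, were called higher, with log2 fold changes of 1.19 to 1.73 and a median of 1.37. The core gene *pas-5* (an alpha subunit) was at 918, 1003, 851 and 604 CPM in SKN-1t[DNDD], against 262, 261, 230.0 and 251 CPM in the wild type (log2 fold change 1.73, standard error 0.153, edgeR adjusted p = 0.000494). The beta subunit gene *pbs-5*, with the smallest change of the 14, was at 628, 584, 475 and 503 CPM in SKN-1t[DNDD] and 238, 279, 206 and 234.6 CPM in the wild type (log2 fold change 1.19, standard error 0.122, edgeR adjusted p = 0.000689). Replicate 4 of SKN-1t[DNDD] was the lowest for *pas-5* and for *pbs-4* (725, 739.6, 625 and 479.6 CPM in SKN-1t[DNDD], 234, 238, 202 and 226 CPM in the wild type), and in both genes it was still above every wild type library. Summed over the 20S genes, expression was 6674 to 9114 CPM in SKN-1t[DNDD] and 2676 to 3317 CPM in the wild type.

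Of the 19 genes of the 19S regulatory particle, which recognizes and unfolds ubiquitinated substrates, 16 rose, with a median log2 fold change of 1.18. The deubiquitinating lid contains *rpn-8*, at 553, 512.5, 427 and 416.3 CPM in SKN-1t[DNDD], against 194, 197, 151 and 185 CPM in the wild type (log2 fold change 1.39, standard error 0.124). The base ATPase gene *rpt-3* was at 493, 443, 365 and 396 CPM in SKN-1t[DNDD], against 178, 189, 147 and 179.9 CPM in the wild type (log2 fold change 1.29, standard error 0.121, edgeR adjusted p = 0.000526). The 3 members below the threshold, *rpt-6* (0.93), *rpn-1* (0.97) and *rpn-6.1* (0.99), lay just under it, with edgeR adjusted p-values of 0.00133, 0.00151 and 0.00104, and all 3 passed at 1.5-fold. Just inside it was *rpn-12* (1.00), which was not called without the block (edgeR adjusted p = 0.00163, with a fold change under the threshold). A further gene, *rpn-6.2*, a paralog of *rpn-6.1*, was at 9.56, 6.63, 14.7 and 21.3 CPM in SKN-1t[DNDD] and 6.59, 7.42, 10.2 and 11.2 CPM in the wild type, and did not pass the test (edgeR adjusted p = 0.0953).

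The change of the proteasome was seen under every setting tried. All 14 genes of the 20S core were called without the block, without any single replicate, in replicates 1 and 2 alone and in replicates 3 and 4 alone, and 12 to 17 of the 19S genes were called in those settings. Set directly against SKN-1t[NNNN], all 14 genes of the 20S core and all 19 of the 19S particle were called higher in SKN-1t[DNDD], with medians of 1.63 and 1.41, where 6.23% of all 14850 genes in that fit were called higher. Against SKN-1t[NDNN] the medians were 0.501 and 0.421 and 0 members of either list passed the 2-fold threshold. *pas-5*, for instance, differed from SKN-1t[NDNN] by 0.59 (edgeR adjusted p = 0.00701, and 0.0252 without the block), and *rpt-3* by 0.43 (edgeR adjusted p = 0.00865, and 0.0585 without the block).

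Genes that act between the ER and the proteasome rose in part. Of 24 tested genes of ERAD, the CDC-48 segregase and ubiquitin shuttles, 7 were called higher and 0 lower. *ubxn-1*, a CDC-48 cofactor, was at 130.4, 122, 116 and 122 CPM in SKN-1t[DNDD], against 51.4, 59.0, 49.1 and 48.5 CPM in the wild type (log2 fold change 1.24, standard error 0.113, edgeR adjusted p = 0.000523). *ddi-1*, the protease that cuts SKN-1A, was at 114, 108, 99.7 and 99.2 CPM in SKN-1t[DNDD], against 48.6, 50.7, 45.7 and 45.7 CPM in the wild type (log2 fold change 1.14). Both were also higher than in SKN-1t[NNNN] (by 1.76 and 1.29) and SKN-1t[NDNN] (by 0.86 and 0.71), with edgeR adjusted p-values of at most 0.000126 for the 4 differences. The remaining 5 were *aip-1*, an arsenite-inducible proteasome adaptor (1.23), *ufd-1* (1.13) and, named after their values were seen, *npl-4.1* (1.118), *npl-4.2* (1.13) and *rad-23* (1.101). UFD-1 and NPL-4 are the substrate-binding partners of CDC-48, and RAD-23 carries ubiquitinated proteins to the proteasome. *png-1*, the glycanase that edits SKN-1A and also named after its values were seen, was at 28.4, 26.2, 23.5 and 27.9 CPM in SKN-1t[DNDD] and 35.4, 39.7, 33.7 and 34 CPM in the wild type, without overlap, a log2 fold change of -0.43 that stayed within the 1.5-fold threshold (edgeR adjusted p = 0.0203).

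Only 1 of 46 tested genes for ubiquitin, its activating and conjugating enzymes and deubiquitinases passed the 2-fold threshold. This was *ubc-18*, a ubiquitin-conjugating enzyme, at 250.5, 212, 195 and 178 CPM in SKN-1t[DNDD], against 87.0, 97.4, 79.1 and 91.8 CPM in the wild type (log2 fold change 1.23, edgeR adjusted p = 0.000821). Among 20 regulators of SKN-1, the 1 member called was *wdr-23*, a substrate receptor that targets SKN-1 for degradation. It was at 154, 156, 106 and 116 CPM in SKN-1t[DNDD] and 60.8, 61.0, 58.1 and 55.3 CPM in the wild type (log2 fold change 1.16, edgeR adjusted p = 0.000883), and its difference from SKN-1t[NNNN] was -1.21 (edgeR adjusted p = 1.39e-05). Other protein quality systems had few calls. Of 17 genes of the ER unfolded protein response, 10 of the mitochondrial stress response and 30 of autophagy, 0 passed at 2-fold with the block and 0 without it, with medians of -0.205, -0.233 and -0.0249. DESeq2 called 0 of them too, and 8, 5 and 14 had an unadjusted p below 0.05 in edgeR. Of 16 cytosolic chaperones only *sip-1* passed, a small heat shock protein of the germline that is described with the germline genes below.

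Detoxification genes split by family. Glutathione S-transferases (GSTs), which join glutathione to electrophiles, had 18 of 42 tested members called higher and 2 lower, with a median of 0.839. Several were near the limit of detection in the wild type. *gst-4*, widely used as a reporter of SKN-1 activity, was at 1271, 1279, 625 and 424 CPM in SKN-1t[DNDD], against 31.5, 35.9, 33.8 and 45.3 CPM in the wild type (log2 fold change 4.49, standard error 0.379, edgeR adjusted p = 0.000444). *gst-30* was at 338, 294, 107 and 84.5 CPM in SKN-1t[DNDD], against 0.0405, 0.127, 1.18 and 0.407 CPM in the wild type (log2 fold change 8.68, standard error 0.808, edgeR adjusted p = 0.000523). In both genes, replicates 1 and 2 of SKN-1t[DNDD] were far above replicates 3 and 4, and all were above every wild type library. The same held for *gst-1*, named after its values were seen, with 1361, 1513, 824 and 727 CPM in SKN-1t[DNDD] and 151, 169.8, 163 and 164 CPM in the wild type (log2 fold change 2.71). For *gst-34*, 434 reads were counted in the 4 SKN-1t[DNDD] libraries and 1 in the 4 wild type libraries, a ratio of 376 with a 95% counting interval of 67.1 to 14900.

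Summed over the GST genes, expression was 5775, 5742, 3652 and 3077 CPM in SKN-1t[DNDD] and 1562 to 1742 CPM in the wild type. The list median in the 4 pairs was 0.858, 1.04, 0.663 and 0.44. Against SKN-1t[NNNN], 0 members were called higher and 10 lower, where 1.37% of all genes were called lower. Against SKN-1t[NDNN], 6 were called lower (0.377% of all genes). *gst-4* was lower than in SKN-1t[NNNN] by 1.47 (edgeR adjusted p = 0.00195) and than in SKN-1t[NDNN] by 1.27 (edgeR adjusted p = 0.00856, and 0.0466 without the block). The 2 members that fell relative to the wild type were *gstk-1*, a kappa-class enzyme, at 23.7, 25.4, 36.6 and 29.8 CPM in SKN-1t[DNDD] and 60, 67.7, 57.3 and 71.5 CPM in the wild type (log2 fold change -1.17, edgeR adjusted p = 0.00151), and *gst-26* (-1.02), which was not called without the block (edgeR adjusted p = 0.00468, with a fold change inside the threshold). Neither was called without replicate 4. Members of this family resemble each other in sequence, and how reads matching more than 1 gene were counted is not given in the sources used here.

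Among UDP-glucuronosyltransferases, which attach sugars to lipophilic compounds, more members fell than rose: 10 of 59 were called higher and 16 lower, with a median of -0.407. *ugt-10* was at 9.96, 9.31, 7.45 and 7.57 CPM in SKN-1t[DNDD], against 0.0809, 0.0422, 0.284 and 0.148 CPM in the wild type (log2 fold change 5.89, edgeR adjusted p = 0.000247). In *ugt-35*, 239 reads stood against 1 read in the wild type (ratio 207, 95% counting interval 36.8 to 8200). The opposite was seen for *ugt-47*, at 55.5, 62.8, 124 and 124 CPM in SKN-1t[DNDD] and 241, 374, 444 and 344 CPM in the wild type (log2 fold change -2.0, edgeR adjusted p = 0.00056). The number of rising members was less stable than that of falling ones, with 4 without replicate 1 or replicate 2 and 7 without replicate 3 or 4. Of 56 cytochrome P450 genes, 4 rose and 12 fell. *cyp-35A5*, of the xenobiotic-inducible cyp-35 family, was at 2.56, 3.35, 4.89 and 5.16 CPM in SKN-1t[DNDD], against 16.6, 16.4, 20.4 and 27.6 CPM in the wild type (log2 fold change -2.36, edgeR adjusted p = 0.000251). *cyp-35A3* (-1.78), *cyp-35C1* (-1.65) and *cyp-35A2* (-1.54) fell too, whereas *cyp-13A10* (2.59) and *cyp-13B1* (2.20) rose. Without replicate 4 the P450 counts were 2 and 7. ABC transporters, which export compounds from cells, had 5 of 49 members higher and 8 lower, against 1 and 5 in the fit without replicate 4, 2 higher without replicate 1 and 1 higher without the block.

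Redox and sulfur metabolism contributed a few strong changes. *gcs-1*, the rate-limiting enzyme of glutathione synthesis, was at 327, 303, 194 and 214 CPM in SKN-1t[DNDD], against 115, 114, 95.3 and 109.7 CPM in the wild type (log2 fold change 1.23, edgeR adjusted p = 0.000985), and was lower than in SKN-1t[NNNN] by 1.46 (edgeR adjusted p = 2.71e-06). Together with the catalase gene *ctl-3* (3.01) it made up the 2 members called among 31 genes of glutathione, thioredoxin and antioxidant enzymes. In cysteine and sulfide metabolism 4 of 17 genes rose and 0 fell. *cysl-2*, a cyanoalanine synthase of the cysteine synthase family, was at 117, 117, 44.2 and 48.9 CPM in SKN-1t[DNDD], against 6.03, 5.02, 3.09 and 8.18 CPM in the wild type (log2 fold change 3.81, standard error 0.325, edgeR adjusted p = 0.000453). *cbl-1* was at 136, 106, 63.8 and 66.1 CPM in SKN-1t[DNDD] and 12.6, 15.3, 16.5 and 24.8 CPM in the wild type (2.39). *cysl-4* (1.96) and *cbs-2* (1.78) were the other two, and the list had 2 calls without the block, without replicate 3 and without replicate 4. Of 46 dehydrogenase and flavin monooxygenase genes, 6 rose (4 without the block), a share near the 11.8% of all genes. In the same list 9 fell, with and without the block, a share above the 4.38% of all genes, and the median was -0.296. *alh-6*, which acts in mitochondrial proline breakdown, was at 168, 154, 111 and 130.1 CPM in SKN-1t[DNDD], against 49.2, 48.9, 55.1 and 50.1 CPM in the wild type (log2 fold change 1.45, edgeR adjusted p = 0.000714), and the short-chain dehydrogenase gene *dhs-8* was at 47.4, 41.9, 13.5 and 9.35 CPM in SKN-1t[DNDD] and 0.928 to 1.66 CPM in the wild type (4.06).

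Some genes that were almost silent in the wild type were clearly expressed in SKN-1t[DNDD]. *spp-9*, a saposin-like protein, was at 67.0, 70, 99.2 and 69.0 CPM in SKN-1t[DNDD] and 0.203 to 0.481 CPM in the wild type (log2 fold change 7.97, standard error 0.264, edgeR adjusted p = 4.71e-05). R05D8.7 was at 124, 101, 48.4 and 39.8 CPM in SKN-1t[DNDD] and 0.243 to 0.407 CPM in the wild type (7.71, standard error 0.331). Its replicates 1 and 2 were more than 2-fold above replicates 3 and 4, as for *gst-4* and *gst-30*, while *spp-9* had no such order.

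A smaller set was set apart from the strain without edited residues, by the direct contrasts of the 16-sample fit. B0416.4 was at 17, 17.8, 12.4 and 9.77 CPM in SKN-1t[DNDD] and 0.0405 to 0.203 CPM in the wild type (log2 fold change 6.70, edgeR adjusted p = 8.6e-05). It was higher than in SKN-1t[NNNN] by 8.15 (edgeR adjusted p = 3.42e-07) and differed from SKN-1t[NDNN] by 0.04 (edgeR adjusted p = 0.922). *rgs-11*, a regulator of G protein signalling, was at 9.37, 10, 5.22 and 5.51 CPM in SKN-1t[DNDD] and 0 to 0.122 CPM in the wild type (6.60), and was higher than in SKN-1t[NNNN] by 6.42 and than in SKN-1t[NDNN] by 0.84 (edgeR adjusted p = 0.0403, and 0.229 without the block). The F-box gene *fbxa-170* was at 5.41, 4.67, 3.47 and 3.13 CPM in SKN-1t[DNDD] and 0.0406 to 0.243 CPM in the wild type (5.36), with differences of 4.68 from SKN-1t[NNNN] and 0.81 from SKN-1t[NDNN] (edgeR adjusted p = 0.0755).

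F11A5.18 and C10A4.7 had a higher level here than in every other strain. F11A5.18 was at 8.19, 8.38, 4.78 and 4.48 CPM in SKN-1t[DNDD] and 0.0370 to 0.0813 CPM in the wild type, a log2 fold change of 6.85 (standard error 0.346, edgeR adjusted p = 8.6e-05). It was higher than in SKN-1t[NNNN] by 6.21 (edgeR adjusted p = 1.16e-05) and than in SKN-1t[NDNN] by 4.07 (edgeR adjusted p = 0.000451, and 0.00188 without the block). For C10A4.7, 328 reads stood against 2 reads in the wild type (ratio 142, 95% counting interval 39.0 to 1180), and the differences were 5.19 from SKN-1t[NNNN] (edgeR adjusted p = 3.91e-05) and 3.13 from SKN-1t[NDNN] (edgeR adjusted p = 0.0015).

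**Figure D2:**
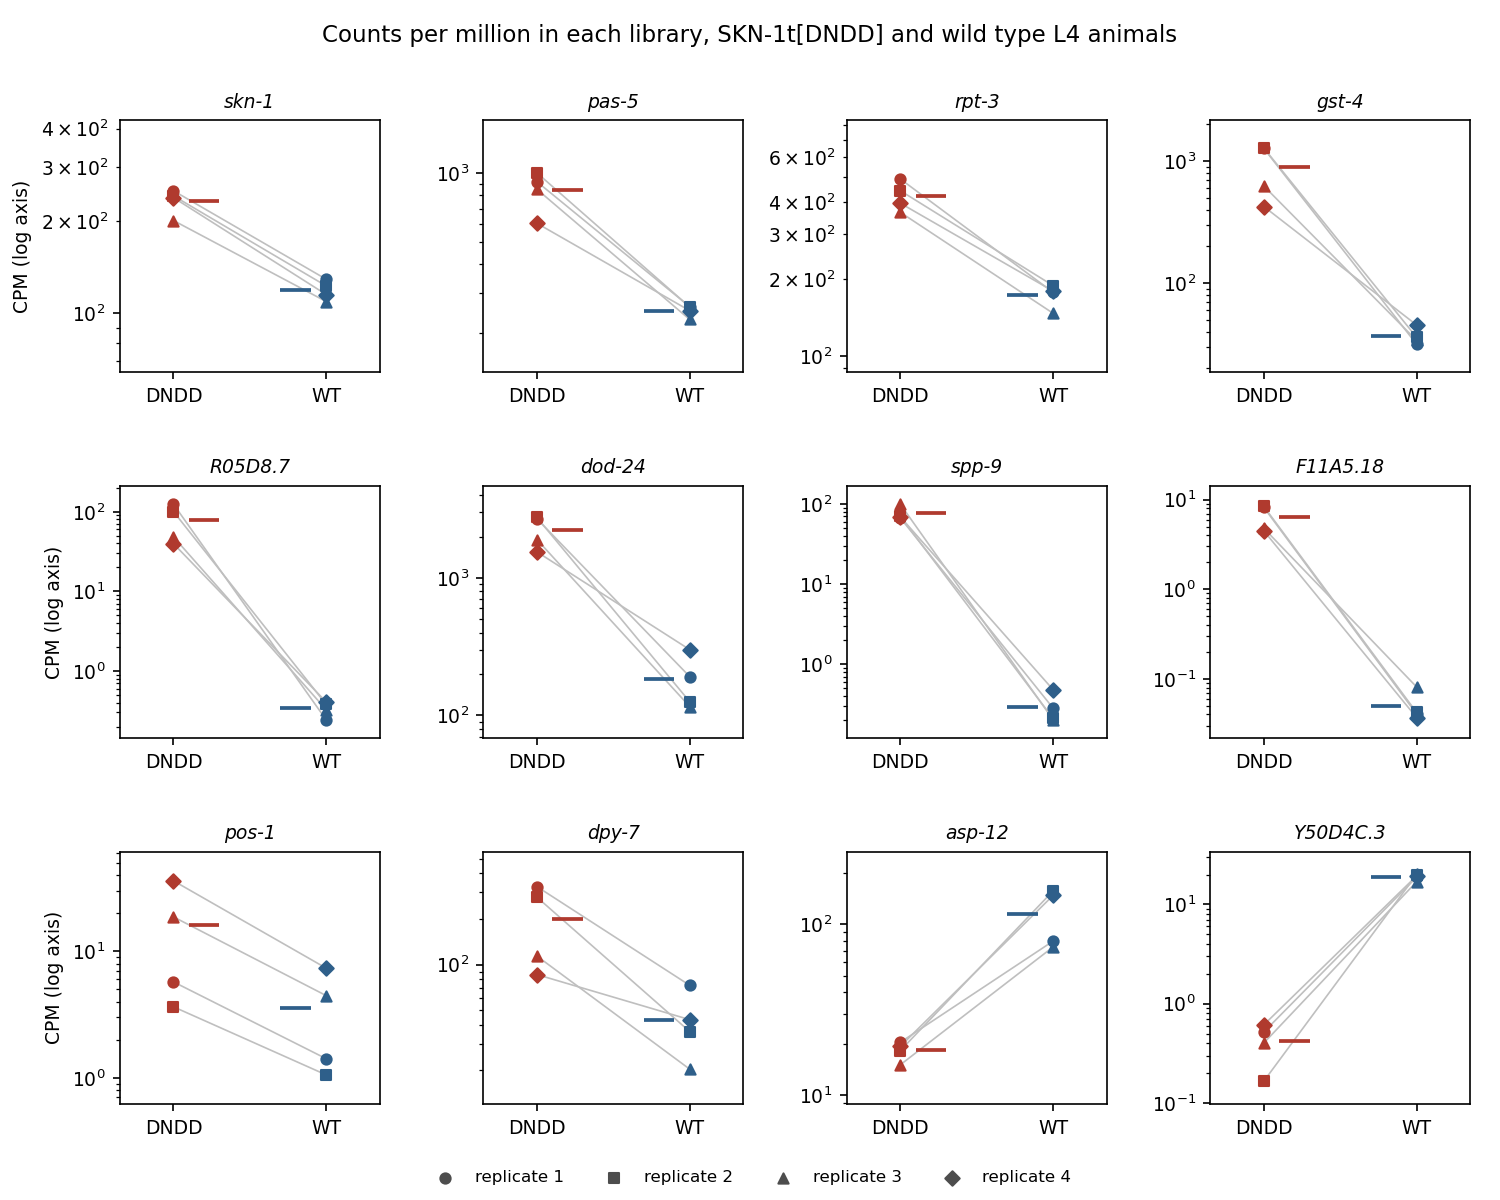
Scaled read counts (CPM, log axes) of 12 genes in the 4 SKN-1t[DNDD] libraries (DNDD, red, left) and the 4 wild type libraries (WT, blue, right), with marker shapes for the replicate numbers, grey lines joining same-numbered replicates and short bars at the group means. The groups of *pas-5* and *rpt-3* do not overlap, *gst-4*, R05D8.7 and *dpy-7* have replicates 1 and 2 above 3 and 4 in SKN-1t[DNDD], and in *pos-1* replicates 3 and 4 lie above 1 and 2 in both groups.

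Yolk protein genes were far lower in SKN-1t[DNDD]. All 6 vitellogenin genes, which the intestine normally expresses from the end of L4 into adulthood to supply oocytes, were called lower, with a median of -5.48. *vit-4* was at 0.0370, 0.0663, 1.42 and 3.58 CPM in SKN-1t[DNDD], against 69.0, 175, 414 and 234 CPM in the wild type (log2 fold change -7.96, standard error 0.707, edgeR adjusted p = 0.000494). *vit-1* was at 15.2, 8.22, 13.6 and 43.3 CPM in SKN-1t[DNDD], against 163, 398, 761 and 451 CPM in the wild type (-4.54, edgeR adjusted p = 0.000913). The more abundant *vit-2*, named after its values were seen, was at 16, 83.8, 555 and 1199 CPM in SKN-1t[DNDD] and 987, 3239.6, 6755 and 3568 CPM in the wild type (-4.16, standard error 0.741, edgeR adjusted p = 0.00418). Its groups overlapped, since replicate 4 of SKN-1t[DNDD] was above replicate 1 of the wild type, and each pair by itself had the lower value in SKN-1t[DNDD].

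Vitellogenin RNA was higher in replicates 3 and 4 than in replicates 1 and 2 in both groups. Summed over the 6 genes, they were 140, 297, 1609 and 3636 CPM in SKN-1t[DNDD] and 4156, 11032, 23194 and 12453 CPM in the wild type. Without the block 3 of the 6 were called, and the edgeR adjusted p without it was 0.0606 for *vit-5*, 0.0781 for *vit-2* and 0.0413 for *vit-6*, the last also named after its values were seen. Leaving out replicate 2 or replicate 3 left 4 calls. *vit-3*, *vit-4* and *vit-5* resemble each other in sequence, and their reads may be shared. Against SKN-1t[NNNN] and SKN-1t[NDNN] the list medians were 2.12 and 1.01. Of the 6 genes, 1 was called higher than in SKN-1t[NNNN], *vit-2* (4.21, edgeR adjusted p = 0.00769, and 0.0178 without the block), and 0 differed by the same rule from SKN-1t[NDNN]. A list of 15 adult and late L4 markers, which holds the 6 vitellogenins, had 6 members lower (the vitellogenins) and 1 higher (*bli-1*, an adult strut collagen, 1.44), with a median of -1.25. Its medians in pairs 1 to 4 were -1.84, -1.18, -1.38 and -0.452, and 3 members were lower without the block. Whether the groups were collected at the same point of L4 is not given in the sources used here, and the part of stage in the yolk, cuticle and germline values was not tested.

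Genes of fat metabolism and of the intestine fell as well, and most of these calls did not need the block. Enzymes that activate and degrade fatty acids had 5 of 60 members higher and 13 lower, with a median of -0.575, and without the block 0 were called higher and 10 lower. Without replicate 4 the counts were 1 and 8, and 2 and 3 members were higher without replicates 1 and 3. *acox-3*, an acyl-CoA oxidase of peroxisomal beta-oxidation, was at 56.9, 70.3, 91 and 82.9 CPM in SKN-1t[DNDD], against 204, 211, 213 and 219 CPM in the wild type (log2 fold change -1.51, standard error 0.138, edgeR adjusted p = 0.000523). *dhs-28*, which acts in the same pathway, was at 298, 294, 378 and 372 CPM in SKN-1t[DNDD], against 712, 848, 810.2 and 846 CPM in the wild type (-1.27). *cpt-5*, of the carnitine palmitoyltransferase family, was at 79.4, 69.9, 71.7 and 75.2 CPM in SKN-1t[DNDD], against 186, 191, 261 and 227 CPM in the wild type (-1.53). In all 3 genes the groups were apart, with SKN-1t[DNDD] libraries below each wild type library. *acdh-2* (-2.55) was called with the block and not without it (edgeR adjusted p = 0.0127), and *lbp-5*, a fatty acid binding protein, fell by 1.72. The lysosomal lipase *lipl-3* rose, at 11, 8.58, 11 and 12.2 CPM in SKN-1t[DNDD] and 2.55, 2.19, 2.97 and 2.59 CPM in the wild type (2.05, edgeR adjusted p = 0.000422). Among 13 genes of glycerol and trehalose metabolism and inositol transport, 3 fell and 0 rose (1 fell without replicate 2), among them *hmit-1.1*, a myo-inositol transporter, at 50.5, 73, 78.0 and 77.0 CPM in SKN-1t[DNDD], against 253, 326, 354 and 286 CPM in the wild type (-2.14, standard error 0.128, edgeR adjusted p = 0.000126).

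Of 11 intestine markers, 7 were lower and 0 higher, with a median of -1.13 that was between -1.37 and -1.01 in each of the 4 pairs. The gut esterase *ges-1* was at 32.9, 26.6, 35.7 and 41.1 CPM in SKN-1t[DNDD], against 106, 124, 109.8 and 108 CPM in the wild type (log2 fold change -1.73, standard error 0.154, edgeR adjusted p = 0.000501). *ifo-1* (-1.53) and *ifc-2* (-1.28), which organize the intermediate filaments beneath the gut lumen, and the acid phosphatase *pho-1* (-1.35) fell with it. The summed expression of the 11 markers was 3748 to 4119 CPM in SKN-1t[DNDD] and 6769 to 9591 CPM in the wild type. In RNA of whole animals, fewer cells of a type and less RNA per cell cannot be told apart. Lysosomal proteases and V-ATPase subunits, many of them expressed in the gut, had 2 of 40 members higher and 8 lower at 2-fold, and 4 higher and 30 lower at 1.5-fold (median -0.772), and 5 were lower at 2-fold without replicate 4. *cpr-1*, a cathepsin B-like protease of the gut, was at 96.0, 72.4, 105 and 141 CPM in SKN-1t[DNDD], against 349, 448, 270.1 and 259 CPM in the wild type (-1.68, edgeR adjusted p = 0.00293, and 0.0102 without replicate 1). The aspartyl protease *asp-14* went the other way, at 4543, 3753, 2856 and 2886 CPM in SKN-1t[DNDD], against 1039, 1086, 1017 and 1338 CPM in the wild type (1.63, edgeR adjusted p = 0.000863).

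The proteases *asp-12* and *asp-8* were lower in SKN-1t[DNDD] than in every other strain. *asp-12* was at 20.3, 18.2, 15 and 19.3 CPM in SKN-1t[DNDD], against 79.9, 157, 73.8 and 148 CPM in the wild type (log2 fold change -2.58, standard error 0.21, edgeR adjusted p = 0.000402). It was lower than in SKN-1t[NNNN] by 3.11 (edgeR adjusted p = 2.07e-06) and than in SKN-1t[NDNN] by 1.54 (edgeR adjusted p = 0.0017, and 0.00949 without the block). For *asp-8* the log2 fold change relative to the wild type was -1.52 (edgeR adjusted p = 0.000315). The log2 difference of *asp-8* from SKN-1t[NNNN] was -1.11 (edgeR adjusted p = 3.08e-06). Its difference from SKN-1t[NDNN] lay just beyond the 2-fold threshold (edgeR adjusted p = 0.000126, and 0.00432 without the block).

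**Figure D3:**
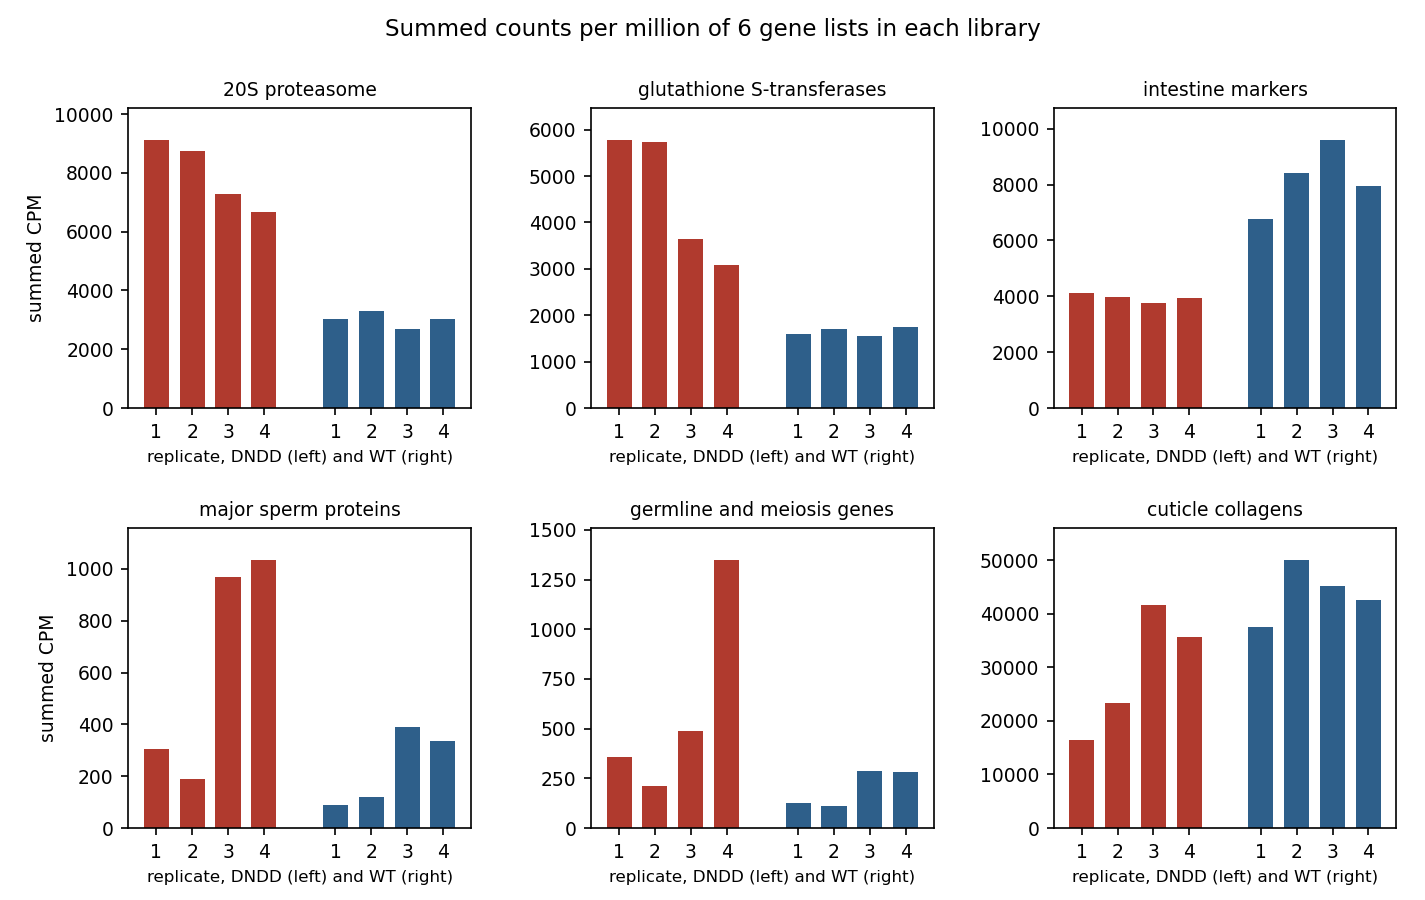
Summed CPM (y axes, from 0) of 6 gene lists in each SKN-1t[DNDD] library (red, left) and each wild type library (blue, right), by replicate. The 20S proteasome, glutathione S-transferases and intestine markers separate the groups in every replicate, whereas the major sperm proteins and the germline and meiosis genes also differ between replicates 1 and 2 and replicates 3 and 4 in both groups, and the cuticle collagens do so in SKN-1t[DNDD].

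Many germline transcripts of SKN-1t[DNDD] exceeded their level in the wild type library of the same number, on top of large differences between replicates. Of 22 germline and meiosis genes 16 rose, of 20 oocyte and eggshell genes 15, of 29 major sperm protein (MSP) genes 25, of 68 other sperm-specific genes 24 and of 27 Argonaute and small RNA genes 7. The number that fell was 0 in the first 4 lists and 1 in the last. Their medians were 1.49, 1.76, 1.38, 0.951 and 0.203. *pos-1*, a maternal RNA-binding protein, was at 5.74, 3.64, 18.8 and 36.2 CPM in SKN-1t[DNDD], against 1.42, 1.05, 4.47 and 7.37 CPM in the wild type (log2 fold change 2.06, standard error 0.166, edgeR adjusted p = 0.000402). *cpg-2*, an eggshell chondroitin proteoglycan, was at 22.4, 12, 62.1 and 164 CPM in SKN-1t[DNDD], against 3.20, 4.09, 14.4 and 20.0 CPM in the wild type (2.395, standard error 0.247, edgeR adjusted p = 0.000701). *msp-81*, which like the other MSP genes encodes the cytoskeletal protein of nematode sperm, was at 22.8, 13.2, 66.8 and 72.8 CPM in SKN-1t[DNDD], against 5.79, 6.83, 22.6 and 19.1 CPM in the wild type (1.61, edgeR adjusted p = 0.00104). In all 3 genes replicates 3 and 4 were higher than 1 and 2 in both groups, and the groups overlapped: replicates 1 or 2 of SKN-1t[DNDD] were below replicates 3 or 4 of the wild type.

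These calls rested on the pairing and on single replicates. Without the block, 1 of the 22 germline and meiosis genes was called, 0 of the 20 oocyte genes, 0 of the 29 MSP genes, 1 of the 68 sperm-specific genes and 0 of the 27 Argonaute genes. The edgeR adjusted p without the block was 0.0801 for *pos-1*, 0.0542 for *cpg-2*, 0.0743 for *msp-81* and 0.0305 for *sip-1*, the germline chaperone, which was at 18, 11.8, 48.3 and 121 CPM in SKN-1t[DNDD], against 2.91, 4.01, 9.84 and 12.4 CPM in the wild type. Without replicate 4, 1 germline and meiosis gene, 4 oocyte genes, 2 MSP genes, 1 sperm-specific gene and 0 Argonaute genes were called, and without replicate 1 the numbers were 5, 9, 13, 6 and 0. Without replicate 3 they were 13, 11, 15, 11 and 7, and without replicate 2 they were 11, 14, 26, 19 and 3. *rec-8*, the meiotic cohesin subunit, was at 4.704, 2.62, 5.92 and 23.9 CPM in SKN-1t[DNDD] and 1.05, 0.590, 4.06 and 3.00 CPM in the wild type, where replicate 4 of SKN-1t[DNDD] stood far above the others (1.95, standard error 0.398, edgeR adjusted p = 0.00695, and 0.0791 without the block).

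The list medians were positive in the 4 pairs. The median of the germline and meiosis list was 1.59, 0.824, 0.877 and 1.93 in pairs 1 to 4, that of the oocyte list 1.58, 0.659, 1.36 and 2.05, and that of the MSP list 1.62, 0.578, 1.23 and 1.56. In the fit of all 16 samples with the block, 26 MSP genes were higher than in SKN-1t[NNNN] and 24 higher than in SKN-1t[NDNN], and 13 and 16 oocyte genes likewise, where 6.23% and 2.68% of all genes were called higher. For the sperm-specific genes the numbers were 20 and 9. The other lists were less apart from these strains. Of the 22 germline and meiosis genes 2 and 3 were higher (medians 0.32 and 0.924), and of the 27 Argonaute genes 0 and 0. *puf-5*, a translational repressor of oocytes, was higher than in SKN-1t[NNNN] by 2.62 and than in SKN-1t[NDNN] by 2.31 (edgeR adjusted p = 8.98e-05 and 0.00101), and without the block these adjusted p-values were 0.164 and 0.257. MSP genes are near-identical copies whose reads may be shared. Their summed level was 306.1, 188.3, 967.1 and 1034 CPM in SKN-1t[DNDD] and 90.2, 120.4, 390.5 and 334.9 CPM in the wild type. Sums, which follow the most abundant members, did not have this direction in every list. The oocyte list summed to 238.1, 219.6, 567.3 and 1105 CPM in SKN-1t[DNDD], against 297.1, 352.5, 484.3 and 427 CPM in the wild type, and was thus lower in pairs 1 and 2. The Argonaute list summed to 1028, 932.4, 1009 and 1727 CPM in SKN-1t[DNDD], against 1139, 1021, 1114 and 1055 CPM in the wild type, and was higher in pair 4 only.

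**Figure D4:**
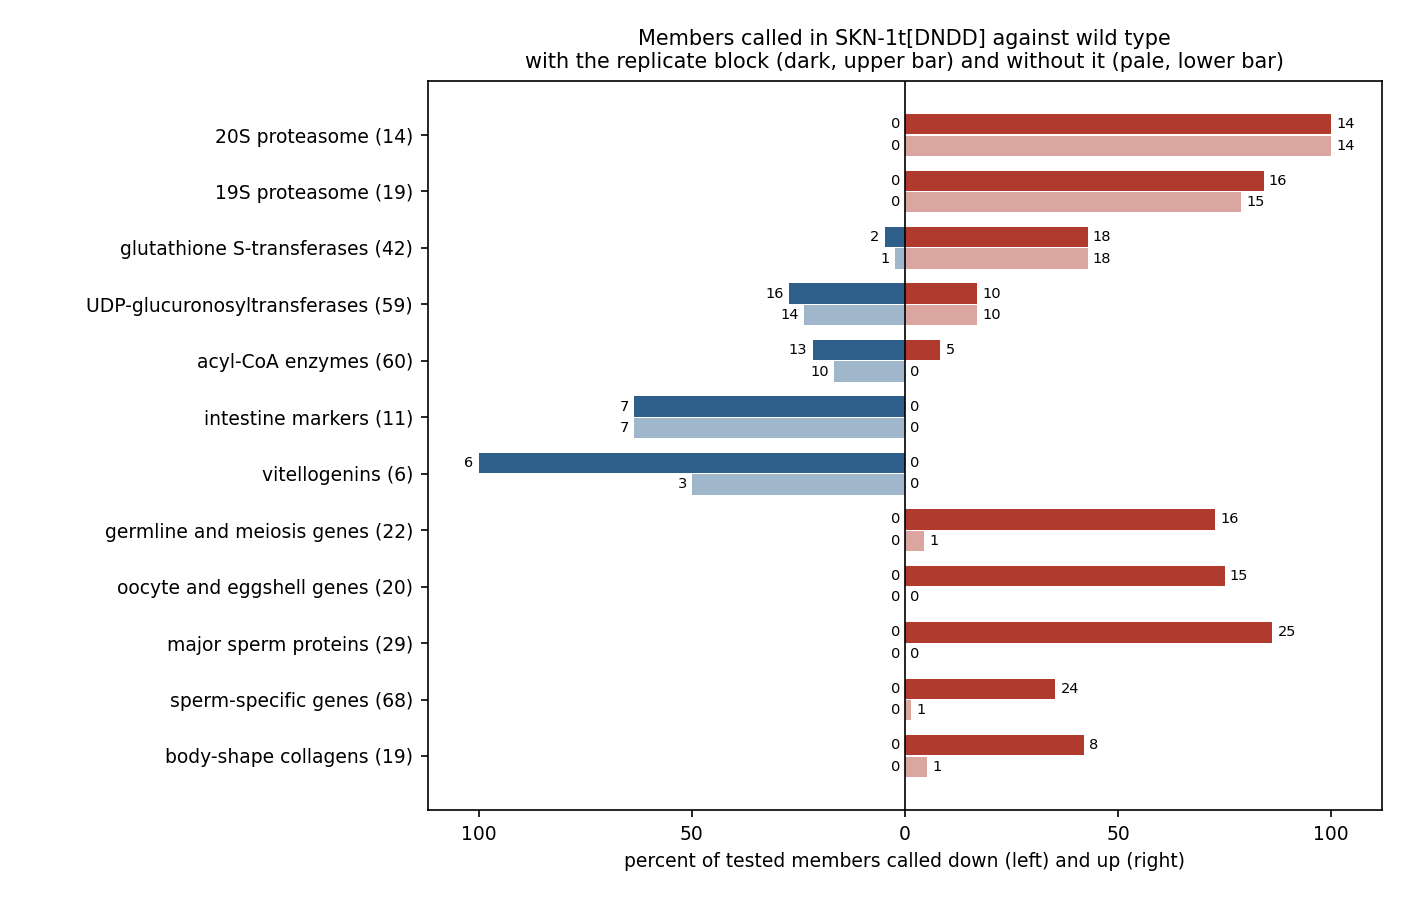
Percent of the tested members of 12 gene lists that were called (x axis), with the replicate block in dark bars and without it in pale bars. The 20S proteasome had 14 of 14 members called higher in both fits, while the major sperm proteins had 25 of 29 with the block and 0 without it.

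Genes of the cuticle changed in both directions. Of 19 body-shape collagens, which pattern the cuticle furrows and struts, 8 rose and 0 fell, with a median of 0.655. *dpy-7*, a furrow collagen of the hypodermis, was at 328, 279, 114 and 85.9 CPM in SKN-1t[DNDD], against 73, 36.1, 20.4 and 43.3 CPM in the wild type (log2 fold change 2.15, standard error 0.299, edgeR adjusted p = 0.00182, and 0.0141 without the block). *dpy-10* (2.19), *dpy-3* (2.23) and *dpy-8* (2.21) rose by similar amounts. *dpy-17* was at 9.30, 9.78, 4.24 and 5.54 CPM in SKN-1t[DNDD], against 0.445, 0.506, 0.610 and 0.444 CPM in the wild type (3.76, edgeR adjusted p = 0.000422, and 0.000206 without the block), and was the 1 body-shape collagen called without the block. *noah-1*, a zona pellucida-domain protein of the apical extracellular matrix, was at 1209, 948, 320.2 and 311 CPM in SKN-1t[DNDD] and 329.5, 145, 96.6 and 152 CPM in the wild type (1.83, edgeR adjusted p = 0.0018, and 0.0288 without the block). *mlt-11*, a protease inhibitor needed for molting, was at 1263, 821, 289 and 343 CPM in SKN-1t[DNDD] and 366, 175, 90.3 and 164 CPM in the wild type (1.69, edgeR adjusted p = 0.00098, and 0.0436 without the block). In both of these genes replicates 3 and 4 of SKN-1t[DNDD] were below replicate 1 of the wild type.

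Among 121 cuticle collagens of the *col* family, 8 rose and 13 fell at 2-fold, and 12 rose and 46 fell at 1.5-fold, with a median of -0.754. In the fit of all 16 samples with the block, 29 of these genes were called higher than in SKN-1t[NNNN] and 0 lower, with a median of 1.0. Of all genes in that fit, 6.23% were called higher. Against SKN-1t[NDNN], 2 were higher and 0 lower, with a median of 0.451. The decrease relative to the wild type was unequal between replicates. The list median was -1.41 and -1.08 in pairs 1 and 2 and -0.176 and -0.29 in pairs 3 and 4. In fits of replicates 1 and 2 alone, 67 *col* genes were called lower, and in those of replicates 3 and 4 alone 11. In fits without replicate 1, 2, 3 or 4 they were 6, 3, 17 and 2, and 5 without the block. The genes that rose numbered 15 in replicates 1 and 2 alone. *col-20* was at 4.63, 23, 163 and 160.2 CPM in SKN-1t[DNDD] and 50.2, 144, 459 and 275 CPM in the wild type, lower in each pair with overlapping groups (log2 fold change -2.06, edgeR adjusted p = 0.00641, and 0.307 without the block). *col-68* held in both fits, at 2.74, 3.88, 6.17 and 4.32 CPM in SKN-1t[DNDD], against 41.5, 52.9, 35.8 and 50 CPM in the wild type (-3.43, standard error 0.245, edgeR adjusted p = 0.000267). *col-98* rose, at 695, 545, 142 and 181 CPM in SKN-1t[DNDD], against 94.5, 41.4, 35.7 and 48.11 CPM in the wild type (2.62, edgeR adjusted p = 0.00109). Of 10 hypodermis markers 4 rose (2 without the block, without replicate 1 or without replicate 4), and their summed expression was 699, 697, 390 and 334 CPM in SKN-1t[DNDD], against 370, 239, 174 and 230 CPM in the wild type. Tested over all genes, the effect of SKN-1t[DNDD] did not pass the threshold for a difference between replicates 1 and 2 and replicates 3 and 4 in any gene: in edgeR's test of the interaction 0 of 14400 genes had an adjusted p below 0.05 and 1527 an unadjusted p below 0.05. The latter number is larger than that cutoff would give if no gene differed. With 8 samples the test has little power for single genes, so it does not show that the effect was equal in both sets of replicates.

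**Figure D5:**
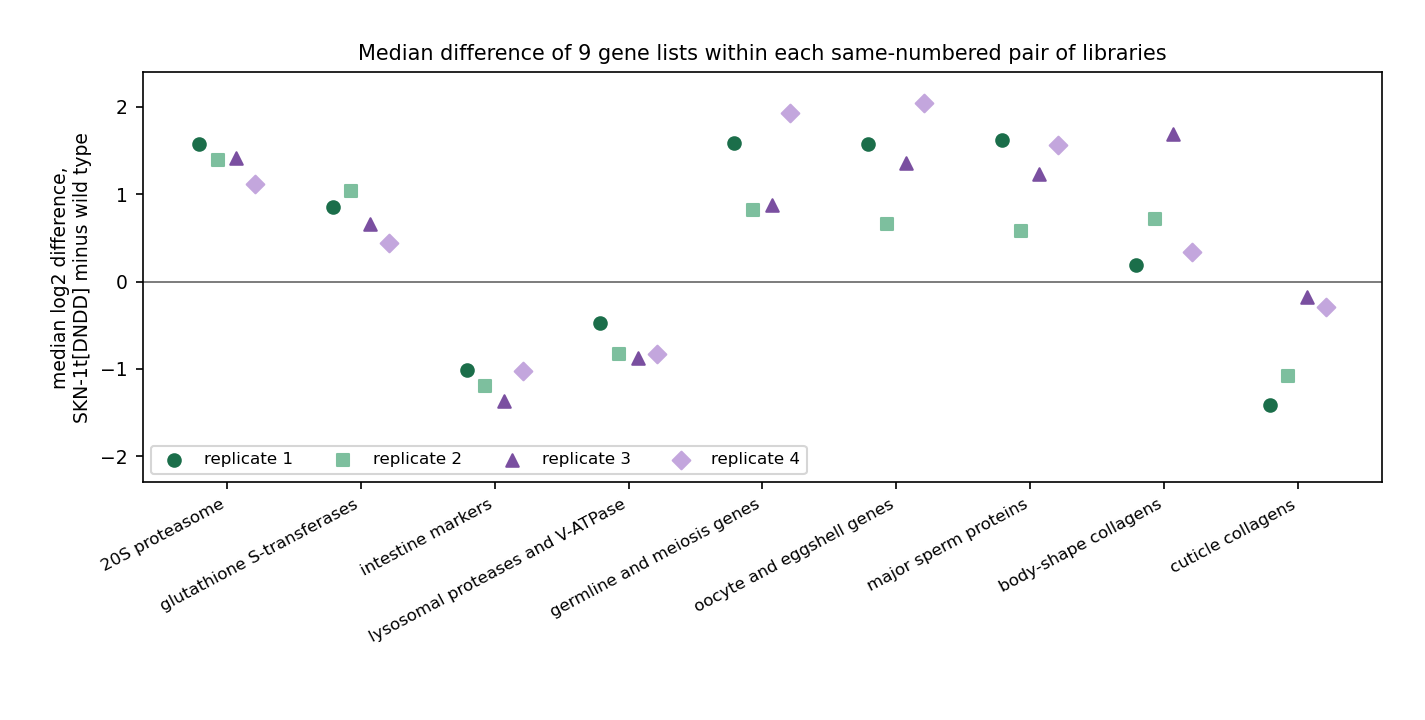
Median log2 difference of SKN-1t[DNDD] minus the wild type over the members of 9 gene lists (y axis), within each same-numbered pair of libraries (marker shape and colour for the replicate number). Intestine markers lie between -1.37 and -1.01 in all pairs, and cuticle collagens at -1.41 and -1.08 in pairs 1 and 2, against -0.176 and -0.29 in pairs 3 and 4.

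Genes of innate immunity were divided. Of 105 C-type lectin genes, whose products bind sugars and several of which respond to pathogens, 19 rose and 24 fell, and without the block 9 and 18. The number that rose was 10 without replicate 1, 12 without replicate 3 and 8 without replicate 4, and the number that fell was 13 without replicate 4. *clec-3* was at 653, 515, 292 and 278 CPM in SKN-1t[DNDD], against 26.3, 23.4, 14.3 and 33 CPM in the wild type (log2 fold change 4.13, standard error 0.285, edgeR adjusted p = 0.000239). *dod-24*, a gene of the pathogen response also known to respond to insulin signalling, was at 2699, 2757, 1904 and 1549.6 CPM in SKN-1t[DNDD], against 191, 126, 116 and 301 CPM in the wild type (3.68, standard error 0.344, edgeR adjusted p = 0.000523). It was lower than in SKN-1t[NNNN] by 1.17 (edgeR adjusted p = 0.009, and 0.0157 without the block). The lysozymes and antimicrobial peptides had 4 of 58 members higher (2 without replicate 4) and 8 lower. *ilys-5*, an invertebrate-type lysozyme, was at 621, 455, 446 and 534 CPM in SKN-1t[DNDD], against 2252, 2834, 2277 and 2618 CPM in the wild type (-2.29, standard error 0.157, edgeR adjusted p = 0.000239), and *spp-4*, another saposin-like protein, was at 6.43 to 7.37 CPM in SKN-1t[DNDD] and 43.3 to 54.4 CPM in the wild type (-2.77, standard error 0.138, edgeR adjusted p = 8.6e-05). *spp-9* and *spp-4*, of the same family, thus had opposite changes.

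In the *pals* family, of which several members respond to intracellular infection, 3 of 24 genes rose relative to the wild type, a share near that of all genes, and 1 when any single replicate was left out. Higher than in SKN-1t[NNNN] were 12 (6.23% of all genes, with 925 calls over all genes with the block and 279 without it). *pals-26* was at 5.96, 6.30, 5.44 and 3.64 CPM in SKN-1t[DNDD], against 1.13, 1.31, 1.02 and 1.07 CPM in the wild type (log2 fold change 2.21, edgeR adjusted p = 0.000595), and was higher than in SKN-1t[NNNN] by 2.45 and than in SKN-1t[NDNN] by 1.90 (edgeR adjusted p = 4.14e-05 and 0.00109, and 4.33e-05 and 0.00234 without the block). The F-box and MATH-domain genes, a large group of which many encode substrate adaptors of ubiquitin ligases, had 35 of 173 members higher and 7 lower, and 9 higher without the block. Without replicate 1, 3 or 4 the higher members numbered 16, 17 and 10, and without replicate 1, 2, 3 or 4 the lower ones 3, 3, 4 and 1. Of 191 nuclear hormone receptor genes 13 rose and 12 fell, with 8 that rose without replicate 1 or replicate 4 and 6, 7 and 2 that fell without replicate 2, 3 or 4. *nhr-265* was at 16, 15, 3.32 and 2.90 CPM in SKN-1t[DNDD] and 0.163 to 0.728 CPM in the wild type (4.64, edgeR adjusted p = 0.000315), and *nhr-73* at 4.41, 3.38, 0.876 and 1.06 CPM in SKN-1t[DNDD] and 0.122 to 0.526 CPM in the wild type (3.12, edgeR adjusted p = 0.00158). Both were higher in replicates 1 and 2 of SKN-1t[DNDD] than in replicates 3 and 4.

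Most lists of other tissues and functions showed few calls. Of 12 body wall muscle markers and 14 neuron markers 0 passed at 2-fold in either direction, in edgeR with or without the block and in DESeq2, with medians of 0.267 and -0.0908 and 4 and 2 members at an unadjusted p below 0.05 in edgeR, and of 12 pharynx markers 1 rose (*marg-1*). Of 81 cytosolic ribosomal protein genes 1 rose, *rpl-11.1* (1.06), and of 51 genes of the respiratory chain and ATP synthase 2 rose, *ucr-2.3* (1.32) and *cyc-2.2* (1.16), with medians of -0.0532 and -0.397 for the lists. The 2 respiratory genes that rose were not called without replicate 1, without replicate 4 or without the block. Most respiratory genes were lower by less than 2-fold. Of the 51, 43 had a negative log2 fold change, and 32 of the list had an unadjusted p below 0.05 in edgeR. Their summed expression was 14826 to 15725 CPM in SKN-1t[DNDD] and 19595 to 22830 CPM in the wild type. Of 24 bZIP factors other than *skn-1*, 3 rose and 1 fell, shares near those of all genes (11.8% and 4.38%). Without the block 1 rose and 1 fell.

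Several genes were nearly absent from SKN-1t[DNDD] and present in the wild type. BE0003N10.6 (WBcel235, chromosome III, 1056230 to 1060061, minus strand) was at 0.630, 0.696, 1.24 and 0.741 CPM in SKN-1t[DNDD], against 283, 311, 109 and 244 CPM in the wild type (log2 fold change -8.07, standard error 0.44, edgeR adjusted p = 9.23e-05). D1014.6 was at 0.778, 0.530, 0.730 and 0.548 CPM in SKN-1t[DNDD], against 71.7, 60.6, 18 and 50.5 CPM in the wild type (-6.16), and Y71G12B.18 was at 0.852, 1.56, 0.657 and 0.516 CPM in SKN-1t[DNDD], against 76.1, 64.4, 19.6 and 55.6 CPM in the wild type (-5.86). *gly-1* (-4.99) and E03H4.4 (-4.69) were far lower too, and replicate 3 was the lowest of the 4 wild type libraries in all 5 genes. None of the 5 passed the 2-fold threshold for a difference from SKN-1t[NNNN] (log2 differences of -1.33 to 1.31, edgeR adjusted p = 0.243 to 0.626). The log2 differences from SKN-1t[NDNN] were larger, at -3.03 for BE0003N10.6, -3.04 for D1014.6, -3.09 for Y71G12B.18, -2.46 for *gly-1* and -0.95 for E03H4.4. Of these, D1014.6, Y71G12B.18 and *gly-1* passed the lower threshold (edgeR adjusted p = 0.0352, 0.0321 and 0.0469, and 0.0695, 0.0684 and 0.11 without the block) and none the 2-fold one. BE0003N10.6 averaged 2.03 ± 1.23 CPM in the SKN-1t[NNNN] strain and 17.5 ± 32.7 CPM in the SKN-1t[NDNN] strain (SD, n = 4 each). Both means were below that of the wild type, and a part of the shared unc-119(ed3) background was not tested. In SKN-1t[NDNN] the SD exceeded the mean, as it did for D1014.6 (8.80 ± 13.6 CPM) and Y71G12B.18 (12.3 ± 18.4 CPM). The libraries of that strain thus differed widely, and the differences from it may rest on few of them.

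Y50D4C.3 had another pattern. On chromosome V (939391 to 945244, minus strand), it was at 0.518, 0.166, 0.402 and 0.612 CPM in SKN-1t[DNDD], against 18.9, 20.0, 16.9 and 19.4 CPM in the wild type (log2 fold change -5.49, standard error 0.307, edgeR adjusted p = 9.61e-05). It was at 17.4 ± 0.691 CPM in the SKN-1t[NNNN] strain and 17.8 ± 1.32 CPM in the SKN-1t[NDNN] strain (SD, n = 4 each), and the direct differences were -5.32 and -5.36 (edgeR adjusted p = 4e-08 and 1.1e-07). The neighbouring genes on its strand, named after their values were seen, were Y50D4C.6 (946723 to 949860), with a log2 fold change of 0.31 (edgeR adjusted p = 0.261), and *sqv-6* (950306 to 964789), with 0.33 (edgeR adjusted p = 0.124). Where mgTi41 is inserted is not given in the sources used here, and a part of the insertion in the loss of Y50D4C.3 was not tested.

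Grouped by the letters of their symbols, 341 families had at least 5 genes tested. In 14 of them the members that rose were at least as many as the others: *alg*, *cpg*, *egg*, *irld*, *lpr*, *mcm*, *msp*, *pas*, *pbs*, *puf*, *rpn*, *rpt*, *snf* and *spe*. Besides the proteasome and germline families, these include *mcm* (6 of 7), the replicative helicase, *lpr* (5 of 7), lipocalin-related proteins of the apical matrix, and *irld* (8 of 15), which resemble the ligand-binding part of the insulin receptor. In 6 the members that fell were at least as many: *acox* (4 of 7), *cpr* (3 of 6), *hrg* (4 of 7), *scav* (3 of 6), *ule* (3 of 5) and *vit* (6 of 6). The *hrg* genes are known for heme transport and the *scav* genes encode scavenger receptors. The calls in *acox*, *cpr*, *hrg* and *scav* were as many without the block, while those in *alg*, *lpr*, *msp*, *puf*, *spe* and *ule* were 0 without it, those in *cpg*, *egg* and *snf* 1, those in *irld* 2 and those in *mcm* 4. Families were picked by these shares, which are a description. By chromosome, genes that rose made up 14.9% of the genes tested on I, 14.2% on II, 9.52% on III, 14.2% on IV, 11.3% on V and 5.48% on X, and genes that fell 2.49%, 4.09%, 2.71%, 4.19%, 6.36% and 6.22%. Without the block the shares that rose were 2.58% to 5.0% on the autosomes and 2.62% on X.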

How the data were processed

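RNA of whole L4 animals was sequenced in 4 samples of SKN-1t[DNDD] and 4 of the wild type, among 16 libraries sequenced as one pool. The authors prepared polyA libraries with a stranded kit, aligned paired reads to WBcel235 with STAR 2.7.7a (quality checks with FastQC 0.11.9, per the labels) and deposited raw read counts for 19122 genes. The identifiers of 19066 were found in the annotation of WBcel235. The gene lengths beside the counts were not used, and the table holds 0 columns of other series. Depth is given with the results.

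Counts were tested in R 4.3.3 with edgeR 4.0.16: filterByExpr (min.count 10, min.total.count 15, 14400 genes kept, 4722 not tested), TMM scaling, glmQLFit with legacy quasi-dispersions and glmQLFTest over the 8 samples, in a design with replicate number and strain. A call needed a change of over 1 on the log2 scale in either direction, with p below 0.01 after Benjamini-Hochberg adjustment over all genes tested, and a second, lower threshold was 1.5-fold and 0.05. Direct differences from the other strains came from a fit of all 16 samples. The standard error is the log2 fold change divided by the root of F. Differences within pairs used log2 CPM with 0.5 CPM added. Ratios of low counts have exact 95% intervals that cover counting error only. DESeq2 1.42.0 served as an alternative, and Python 3.11.15, pandas 2.3.3, scipy 1.17.1 and matplotlib 3.10.9 for summaries and figures. The fit with the replicate block was tested on simulated counts of 14400 genes with 200 changed, of which 100% were recovered with 0 false calls and 0 wrong signs. The changes put in were all well beyond the 2-fold threshold and in genes without low counts. All genes had the same spread, and a shared effect of the replicate number was built in. Such a simulation does not test changes near the threshold, genes with few reads or genes with a wider spread. Nor does it test whether the real samples are paired by replicate number.

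The study's methods name no block. The pairing comes from the replicate numbers in the labels. Deviations from the group means correlated at 0.478 to 0.550 in the 4 same-numbered pairs. Different numbers within replicates 1 and 2 gave 0.218 and 0.599, and those within replicates 3 and 4 gave 0.418 and 0.543. All other pairings were negative, at -0.653 to -0.295. The correlations thus set replicates 1 and 2 apart from 3 and 4, and do not single out the same-numbered pairs.

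Members and gene lists (61 lists) were chosen with earlier results of these data known. The text names the check genes *skn-1*, *unc-119* and *rpl-28*, the 10 largest changes in each direction with a mean of at least 1 CPM and the same direction in all 4 pairs, up to 4 called members per list and direction, all proteasome subunits, lists with at most 5 calls, and *gst-4*, *gcs-1*, *rpt-3* and *rpn-6.2*. This covers 261 genes, not all of them given here. A further 9 were named after their values were seen and are marked so. Alternatives were the fit without the block, RLE and upper-quartile scaling, other filters on low counts, DESeq2, newer quasi-dispersions, a fit of all 16 samples, replicates 1 and 2 or 3 and 4 alone and each replicate left out.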

Additional observations from a re-analysis of the deposited data

Results flagged for a closer look

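Of 214 groups of 4 libraries (107 genes in 2 groups), 9 had a library that stood apart from the other 3 by Dixon's criterion, where chance gives about 1 in 20. In SKN-1t[DNDD], *spp-9* was at 99.2 CPM in replicate 3 and 67.0 to 70 CPM in the others, *rec-8* at 23.9 CPM in replicate 4 and 2.62 to 5.92 CPM in the others, and *spp-4* at 6.43 CPM in replicate 2 and 7.22 to 7.37 CPM in the others. In the wild type, the library apart was the one with the most reads of a nearly silent gene. *fbxa-170* was at 0.243 CPM in replicate 1 and 0.0406 to 0.0741 CPM in the others, *nhr-265* at 0.728 CPM in replicate 1 and 0.163 to 0.253 CPM in the others, and F11A5.18 at 0.0813 CPM in replicate 3 and 0.0370 to 0.0422 CPM in the others. A single wild type library had any read of *gst-34* (0.0422 CPM in replicate 2), *ugt-35* (0.0406 CPM in replicate 3) and C10A4.7 (0.0813 CPM in replicate 3), and the others were at 0. Except for *rec-8*, each of these 9 genes kept its groups apart.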

How the results depend on the processing

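The counts depended on the replicate block and on single replicates. Without it 495 genes rose in SKN-1t[DNDD] in place of 1692, 1706 in place of 3183 at the lower threshold, and the genes that differed directly numbered 279 higher and 109 lower than in SKN-1t[NNNN] (925 and 203 with the block) and 19 higher and 19 lower than in SKN-1t[NDNN] (398 and 56). Leaving out one replicate gave 555 to 1295 genes that rose and 391 to 572 that fell, and replicates 1 and 2 alone gave 967 that fell. Other scalings, filters, quasi-dispersions, DESeq2 and the fit of all 16 samples gave 1529 to 2116 genes that rose and 511 to 679 that fell. Upper-quartile scaling moved the median of all genes by 0.102 on the log2 scale. None of the 107 genes followed by name turned its direction under any alternative that could be computed, and 24 could not be compared with at least 10 counts in every sample. These genes were named mainly for their calls and large changes, so a kept direction says little. The largest losses of calls among them were 21 without the block and 13 without replicate 4, and the cause was not tested. The search for SKN-1 motifs in promoters was not run. Depth limits the genes with 1 or 2 reads in the wild type, whose ratios have intervals that span more than 10-fold.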
